A study of Mus musculus with 19 samples.

Results

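Fibroblast growth factor (FGF) signalling was described through 8 genes in the mouse prostate: the ligands Fgf1, Fgf2, Fgf7 and Fgf10, the receptor tyrosine kinases Fgfr1, Fgfr2 and Fgfr3, and Fgfrl1. The members were named after earlier results of these data. Fgfrl1 was chosen by its measured difference between diets, since it was higher on a high fat diet (HFD) in the ventral prostate of these same arrays. The platform annotation gave 17 probe sets to 1 of these genes only, and the probe set with the highest mean over the 19 arrays stood for each gene. Of the 8 genes, 7 passed the filter on dim probe sets and were tested among 11728 genes, out of 18193 named on the array.

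RNA of the dorsolateral (DLP) and ventral (VP) lobes of C57BL/6J mice was hybridised to a 3′ expression array, 1 sample per array. Mice were 8 weeks old at the start and ate either the HFD or a control diet freely for 12 weeks. The groups, named by diet and lobe, were HFD DLP with 4 arrays, control DLP with 5, HFD VP with 5 and control VP with 5. Each diet had 5 mice by the labels, which name no mouse for an array, so the p-values measure only the spread between these samples, which may be partly technical.

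FGF ligands bind receptor tyrosine kinases together with heparan sulfate on the cell surface, and the receptors signal through adaptor proteins to the RAS-MAPK chain. In the prostate, Fgf7 and Fgf10 are made by the stroma and act on the epithelium through the epithelial splice form of Fgfr2, and Fgf10 is needed for the gland to bud in the mouse embryo. Fgfrl1 resembles the receptors outside the cell but has no tyrosine kinase domain inside it. The splice forms of the receptors were not told apart here.

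Values are on a log2 scale on which each array had a median of 1.85 and a 75th percentile of 3.46. They depend on the brightness of each probe set, so levels were compared between arrays and not between genes. Fewer cells of a type and less RNA per cell cannot be told apart in these whole lobes. The lobe labels were set beside secretory genes. Tgm4, a transglutaminase of prostatic secretion that was taken from earlier results, lay between 12.3 and 12.7 in DLP and between 1.4 and 2.4 in VP. As Tgm4 was picked after its values in these arrays were seen, this is a description and no check of the labels. Spink1, a protease inhibitor secreted by the ventral lobe, lay between 12.1 and 12.7 in VP. In DLP it was 11.6 on HFD DLP 2, 11.8 on control DLP 2 and 10.2 on control DLP 4, against 3.5 to 7.6 on the other 6 arrays. The members called between the lobes are therefore also given without these 3 arrays. Pbsn, a dorsolateral secretory gene, ranged from 12.4 to 12.7 in DLP and from 7.4 to 12.0 in VP, and Msmb overlapped between the lobes.

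**Figure D1:**
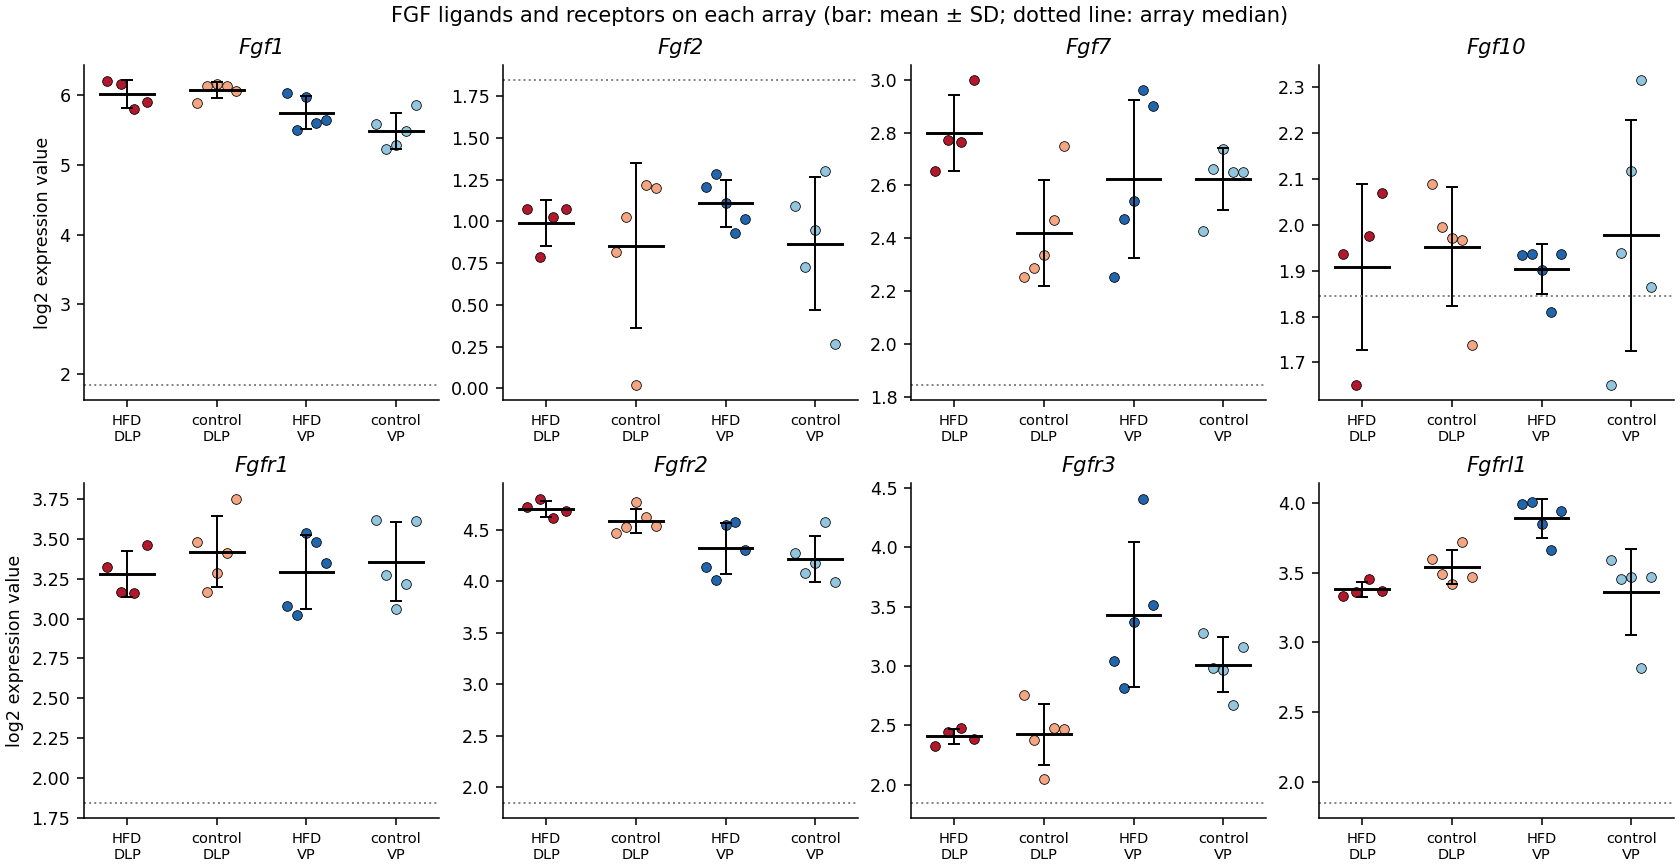
The log2 expression value of each member on every array (points), with the mean and SD of each group, and the array median as a dotted line. Each panel has its own vertical scale. Fgfr3 was lower in both DLP groups than in VP on average, Fgfr2 and Fgf1 were higher, and Fgf2 lay under the median on all 19 arrays.

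Between the lobes, averaged over both diets, Fgf1 and Fgfr2 were higher in DLP and Fgfr3 was lower. Fgf7, Fgf10 and Fgfr1 did not pass the test. Fgfrl1 was not called either, and its lobe value is a description, because the VP arrays that chose the gene enter it. Fgfr3 was 1.75-fold lower in DLP, Fgf1 was 1.34-fold higher and Fgfr2 was 1.30-fold higher. That is 3 of the 7 tested members by limma's moderated test at an adjusted p under 0.05, where 65.8% of all tested genes passed. With only 7 members tested, nothing is read from their share.

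Fgfr3, a receptor tyrosine kinase that binds Fgf1 among other ligands, was 2.33, 2.44, 2.47 and 2.38 on the HFD DLP arrays and 2.76, 2.38, 2.05, 2.47 and 2.47 on the control DLP arrays. It was 3.05, 2.81, 3.37, 4.41 and 3.52 on the HFD VP arrays and 3.28, 2.98, 2.97, 2.67 and 3.16 on the control VP arrays. The lobes overlapped only where control DLP 1, at 2.76, lay above control VP 4, at 2.67, and HFD VP 4 was the highest array by far. The log2 difference averaged over diets was -0.81 with a 95% interval from -1.12 to -0.49, and limma's adjusted p was 0.0001. Within HFD mice it was -1.03 with an adjusted p of 0.00062 in limma, where 52.9% of all tested genes passed, and the lobes did not overlap, as for 44.4% of genes. Within control mice it was -0.59 with an adjusted p of 0.022 in limma, where 55% of genes passed. Without the 3 DLP arrays of high Spink1 the averaged difference was -0.81 with limma's adjusted p of 0.0012, and within control mice it was -0.59 with limma's adjusted p of 0.077. With 15 added before log2 it was -0.18 with limma's adjusted p of 0.092. The control comparison also missed the threshold in limma without control VP 1, at an adjusted p of 0.056, or without control DLP 3, at 0.065. The other probe set of Fgfr3 exceeded the array median on 1 array of 19 and was not tested. The probe set used was dim, at 2.05 to 2.76 in DLP against an array median of 1.85, so the size of its differences is uncertain.

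Fgfr2, the receptor through which stromal Fgf7 and Fgf10 reach the epithelium, was 4.72, 4.80, 4.62 and 4.68 in HFD DLP and 4.47, 4.53, 4.77, 4.63 and 4.54 in control DLP. It was 4.14, 4.02, 4.55, 4.58 and 4.31 in HFD VP and 4.27, 4.08, 4.17, 4.57 and 4.00 in control VP. All 4 HFD DLP arrays lay above all HFD VP arrays, and 44.4% of all tested genes did not overlap between these groups. In control mice, control VP 4 reached into the range of control DLP. The averaged difference was 0.38 with a 95% interval from 0.21 to 0.55 and limma's adjusted p of 0.00042. Within HFD mice it was 0.39 and within control mice 0.37, with adjusted p-values of 0.01 and 0.0086 in limma. Of all tested genes, 52.9% and 55% passed in these comparisons. Without the 3 arrays of high Spink1 the averaged difference was 0.36 with limma's adjusted p of 0.0043. A second probe set of Fgfr2 gave 0.18 for the averaged difference with limma's adjusted p of 0.023, so both passed in the same direction. Within HFD mice the second gave 0.24 with an adjusted p of 0.0496, and within control mice 0.13 with 0.26, both from limma. The remaining probe set lay under the array median throughout.

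Fgf1, an acidic FGF that binds all the receptors named here, was 6.21, 6.16, 5.80 and 5.90 in HFD DLP and 5.89, 6.13, 6.17, 6.13 and 6.06 in control DLP. It was 6.04, 5.51, 5.97, 5.60 and 5.64 in HFD VP and 5.59, 5.23, 5.28, 5.49 and 5.86 in control VP. Every control DLP array lay above every control VP array, as for 39.3% of all tested genes, while the HFD groups overlapped. The averaged difference was 0.43 with a 95% interval from 0.24 to 0.61 and limma's adjusted p of 0.00031, and without the 3 arrays of high Spink1 it was 0.38 with an adjusted p of 0.0052 in limma. Within control mice it was 0.59 with an adjusted p of 0.00044, where 55% of all tested genes passed. Within HFD mice it was 0.27 with 0.093, both from limma, and 52.9% passed. Without HFD VP 1 the value in HFD mice was 0.34 with limma's adjusted p of 0.038. The difference between those values was not called, at -0.32 with limma's adjusted p of 0.65. The call rested on 1 probe set, 1423136_at. The 2 other probe sets of Fgf1, both above the array median on all 19 arrays, gave -0.08 and 0.07 for the averaged difference with adjusted p-values of 0.35 and 0.55 in limma. The last of these, 1441042_at, gave 0.39 within HFD mice with limma's adjusted p of 0.036. The other, 1450869_at, carries the same accession in the annotation as the probe set that passed.

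The remaining members did not pass between the lobes. Fgfr1 ranged from 3.16 to 3.46 in HFD DLP and 3.17 to 3.75 in control DLP, against 3.02 to 3.54 in HFD VP and 3.06 to 3.62 in control VP. The averaged difference was -0.02 for Fgf7 with a 95% interval from -0.21 to 0.18, and -0.01 for Fgf10 with an interval from -0.18 to 0.16. For Fgfr1, a receptor found in stromal and epithelial cells, it was 0.02 with an interval from -0.17 to 0.22. These intervals exclude lobe differences as large as that of Fgfr3. Fgf10 exceeded the median on 15 of the 19 arrays and lay close to it throughout, so the size of its differences is uncertain. Fgf2, the basic FGF, lay between 0.02 and 1.30 over all 19 arrays and under the array median on each, and it was not tested in the main table. Without any filter its averaged lobe difference was -0.07, with limma's adjusted p of 0.76. The averaged difference of Fgfrl1 weighs HFD VP and control VP equally. The higher HFD VP values that chose the gene therefore enter its VP mean. This averaged difference was -0.16 with a 95% interval from -0.34 to 0.01 and limma's adjusted p of 0.09. Without control VP 4 it was -0.23 and without HFD VP 4 it was -0.19, and each of these crossed the threshold, so this result turned on single VP arrays. The difference was -0.51 within HFD mice and 0.18 within control mice, so the averaged value joins opposite signs. As the rule used these VP arrays, the lobe values of Fgfrl1 are a description. Within HFD mice the lobes did not overlap for Fgfrl1, at 3.34 to 3.45 in HFD DLP and 3.66 to 4.01 in HFD VP. Of all tested genes, 44.4% did not overlap there. The second probe set of Fgfrl1 gave an averaged difference of -0.03 with limma's adjusted p of 0.72.

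Markers of several cell types also differed between the lobes, where 33.5% of all tested genes were higher in DLP and 32.3% lower. In limma's test of the averaged difference, 5 of 6 basal epithelial markers, 6 of 8 smooth muscle markers, 7 of 7 nerve markers, 2 of 8 fibroblast markers and 2 of 6 endothelial markers were higher in DLP. In the same test 4 of 6 luminal epithelial markers, 5 of 6 macrophage markers and 1 of 2 adipocyte markers were lower. The summed linear level of the basal markers was 116 to 129 in HFD DLP and 108 to 148 in control DLP, against 78 to 112 in HFD VP and 74 to 106 in control VP. That of the luminal markers was 2548 to 2632 in HFD DLP and 2165 to 2516 in control DLP, against 2833 to 3177 in HFD VP and 2531 to 3407 in control VP. That of the nerve markers was 31 to 48 in HFD DLP and 27 to 255 in control DLP, against 15 to 21 in HFD VP and 15 to 20 in control VP. These sums over 8 nerve markers were low in VP, so some may have passed the filter through DLP alone. The count of 7 of 7 therefore carries no support. Without control DLP 2, 4 and 5, which held the most nerve marker signal, the averaged differences were 0.40 for Fgf1, 0.39 for Fgfr2 and -0.82 for Fgfr3, with limma's adjusted p at most 0.0057. Within control mice the same step gave 0.40 for Fgfr2 and -0.61 for Fgfr3, with adjusted p-values of 0.056 and 0.12 in limma. The part of these cell types in the results was otherwise not tested. Of the seminal vesicle markers 0 of 2 passed limma's test. Their summed linear level was 115 on HFD VP 2 and 40.5 on HFD DLP 1, against 8.2 to 18.1 on the other 17 arrays. In limma's test 1 of 2 dorsolateral secretory markers was higher.

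**Figure D2:**
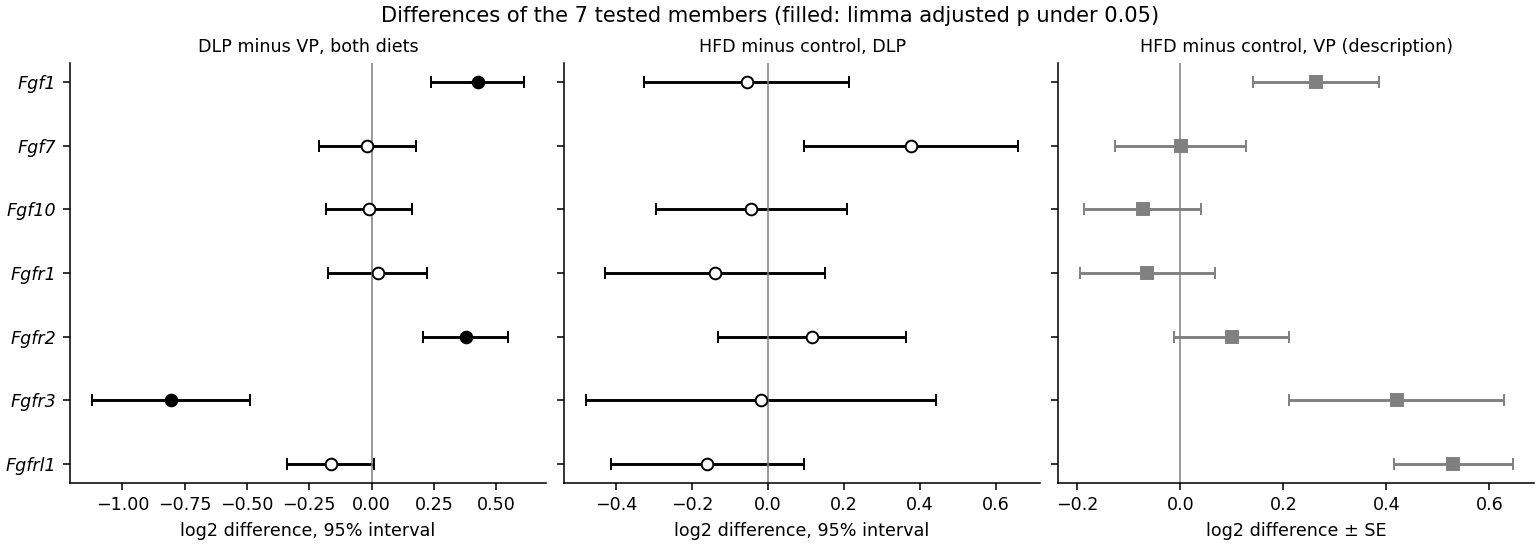
The log2 difference of each of the 7 tested members in 3 comparisons, with 95% intervals for the lobe comparison and the diet comparison in DLP, and SE for the diet comparison in VP, which is a description. Filled circles passed limma's adjusted threshold of 0.05, and grey squares carry no test. The lobe value of Fgfrl1 is also a description. Fgfr3, at -0.81, lay farthest from 0 between the lobes, and no member passed on the diet in DLP.

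Of the 47 tested genes of 5 FGF pathway lists, limma called 34 between the lobes, or 72.3%, near the 65.8% of all tested genes. Fgfbp1, a secreted protein that releases FGFs from the matrix, averaged 1.497 in HFD DLP and 1.519 in control DLP, against 4.51 in HFD VP and 4.79 in control VP. It lay under the array median on all 9 DLP arrays and above it on all 10 VP arrays. It therefore passed the filter through VP alone, and its difference of -3.14 is given as a description of uncertain size. Of 9 listed receptors, co-receptors and binding proteins, 6 were tested, of which 4 were lower in DLP and 0 higher, with a median difference of -0.61 against 0.00 over all tested genes. Fgfbp1 and Fgfbp3, which exceeded the median on 3 of 9 DLP arrays, passed the filter through the VP arrays where they were high, so this count and median carry no support. The share lower was 32.3% and the share higher 33.5% over all tested genes. The others lower in DLP by limma were Il17rd, a membrane inhibitor of FGF signalling, at -0.88, Fgfbp3, a second binding protein, at -0.77, and Flrt2, a membrane protein of a family that interacts with FGF receptors, at -0.46. The receptor Fgfr4 and the co-receptors Kl and Klb were not among the tested genes.

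Of 19 heparan sulfate proteoglycans and enzymes, 17 were tested, with 10 lower and 4 higher in DLP by limma and a median difference of -0.26. Over all tested genes 32.3% were lower and 33.5% higher, with a median of 0.00. The syndecans Sdc2 and Sdc4, membrane proteoglycans that carry heparan sulfate, differed by -1.23 and -1.10, and the glypican Gpc4 by -0.95. Sulf2, an extracellular enzyme that removes sulfate groups from heparan sulfate, differed by 1.04. All 4 had limma's adjusted p of at most 4.4e-05, and the first 3 had no overlap between the lobes, as for 27.2% of all tested genes. Among 18 other FGF ligands 2 passed the filter. Of those, Fgf13, an intracellular FGF homologue that does not act through the receptors, was higher in DLP by 0.36 with limma's adjusted p of 0.00068.

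Of 18 listed receptor adaptors and RAS-MAPK genes, 12 were tested, with 5 lower and 4 higher in DLP by limma and a median of 0.00. Ptpn11, a phosphatase that couples receptors to RAS, differed by 0.87, the kinase Map2k2 by 0.84, the kinase Braf by 0.51 and the docking protein Gab1 by -0.52. Of 17 feedback regulators and transcriptional targets, 10 were tested, with 3 lower and 3 higher by limma and a median of 0.08. Dusp5, a phosphatase of MAP kinases, was higher by 1.16, the early response factor Egr1 by 1.09 and the RAS pathway inhibitor Spred1 by 0.73, whereas Spry1, a feedback inhibitor, differed by -0.52. Limma's adjusted p was 0.028 for Egr1 and at most 8.2e-06 for the other 3. Within each of these 2 lists the calls ran in both directions, where 32.3% of all tested genes were lower and 33.5% higher.

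**Figure D3:**
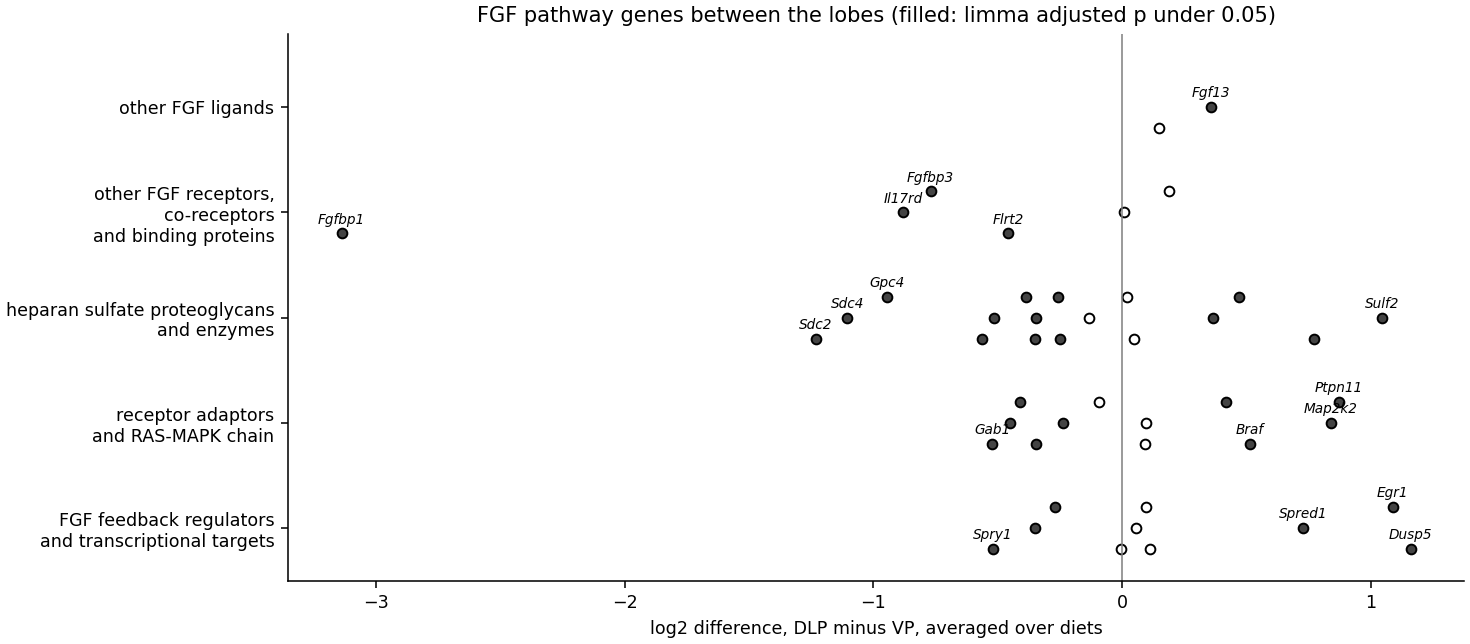
The log2 difference between DLP and VP, averaged over diets, for each tested gene of 5 FGF pathway lists, 1 row of points per list with points offset for legibility. Filled points passed limma's adjusted threshold of 0.05, and up to 4 of those are named per list. Fgfbp1, at -3.14, lay apart from all other genes shown, and it was under the array median throughout DLP.

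The promoter windows of the 3 receptor genes that the lobe and diet values turn on are shown to give the sequence context of those genes. RefSeq windows of the GRCm38.p6 build were available here for 6 of the 8 members, and each spans 300 bases, most of them before the annotated start. The capitals mark the GC box, GGGCGG on either strand. The windows are Fgfrl1 at chr5:108693979-108694278 on the plus strand, Fgfr3 at chr5:33721474-33721773 on the plus strand and Fgfr2 at chr7:130266759-130267058 on the minus strand.
Fgfrl1: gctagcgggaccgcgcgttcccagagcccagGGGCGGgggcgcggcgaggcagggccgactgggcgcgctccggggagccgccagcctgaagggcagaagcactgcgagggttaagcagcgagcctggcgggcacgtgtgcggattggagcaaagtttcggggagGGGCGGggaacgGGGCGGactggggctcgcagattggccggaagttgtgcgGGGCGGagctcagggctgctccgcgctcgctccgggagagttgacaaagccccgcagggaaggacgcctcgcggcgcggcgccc
Fgfr3: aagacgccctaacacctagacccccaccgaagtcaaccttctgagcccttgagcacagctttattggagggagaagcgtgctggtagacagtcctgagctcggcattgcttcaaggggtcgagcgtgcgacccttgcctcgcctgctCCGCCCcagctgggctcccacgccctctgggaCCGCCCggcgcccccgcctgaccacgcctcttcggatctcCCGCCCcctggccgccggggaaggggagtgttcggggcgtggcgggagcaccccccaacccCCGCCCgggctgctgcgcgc
Fgfr2: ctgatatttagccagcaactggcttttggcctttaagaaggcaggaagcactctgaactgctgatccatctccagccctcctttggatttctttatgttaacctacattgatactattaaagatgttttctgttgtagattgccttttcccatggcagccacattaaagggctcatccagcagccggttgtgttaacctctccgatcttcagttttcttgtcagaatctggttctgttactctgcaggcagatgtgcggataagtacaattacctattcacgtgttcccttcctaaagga

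Fgfrl1 and Fgfr3 each held 4 GC boxes and 73.7% and 69.7% G and C, whereas the Fgfr2 window held 0 GC boxes and 43.7% G and C. Over 32851 windows of the same length, 35.7% held a GC box and the median G and C content was 52.7%. CpG dinucleotides numbered 37 in Fgfrl1, 26 in Fgfr3 and 4 in Fgfr2, against a median of 7. None of the 3 windows held TATAAA, which 13.6% of windows held, or the androgen response half-site TGTTCT, which 18.97% held, on either strand. These are descriptions of the letters and were not set against the expression values.

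In DLP, no member passed on the diet, and the fit called no gene at all there. Limma's count over all 11728 genes was 0, or 0% of genes, with 662 at an unadjusted p under 0.05 and between 0 and 6 genes called under the alternatives run. These arrays were not used to choose the members.

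Fgf7, the keratinocyte growth factor, was 2.65, 2.77, 2.76 and 3.00 in HFD DLP, against 2.25, 2.29, 2.34, 2.47 and 2.75 in control DLP. The HFD arrays lay above 4 of the 5 control arrays. The log2 difference was 0.38 with a 95% interval from 0.10 to 0.66, an unadjusted p of 0.011 and limma's adjusted p of 0.82. A second probe set of Fgf7 gave 0.08, with limma's adjusted p above 0.99. Of the other members, Fgfrl1 differed by -0.16 in DLP with a 95% interval from -0.41 to 0.09, Fgfr1 by -0.14 from -0.43 to 0.15, and Fgfr2 by 0.12 from -0.13 to 0.36. Fgf1 differed by -0.06, Fgf10 by -0.04 and Fgfr3 by -0.02, and limma's adjusted p was at least 0.99 for each of these 6.

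The probe sets of Fgf1 disagreed on the diet in DLP. Probe set 1441042_at, the dimmest of the 3, was 3.08, 2.79, 2.88 and 2.85 in HFD DLP, against 2.55, 2.30, 2.12, 2.55 and 2.15 in control DLP. The groups did not overlap, as for 3.15% of all tested genes, and the difference was 0.57 with an unadjusted p of 0.0013 and limma's adjusted p of 0.57. The brightest probe set gave -0.06 and the remaining one 0.03, each with limma's adjusted p above 0.99. Fgf2, without any filter, differed by 0.13 on the diet in DLP with limma's adjusted p of 1.00. In the 5 pathway lists limma called 0 of the 47 tested genes on the diet in DLP, with 1, Ptpn11, at an unadjusted p under 0.05, and the list medians ran from -0.13 to 0.07, against 0.01 over all tested genes. The nerve markers, of which 0 of 7 passed limma's test on the diet in DLP, had a median difference of -1.03, since the control arrays 2, 4 and 5 held the most.

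In VP, Fgfrl1 was higher on the HFD, and this contrast supplied the reason for its choice, so it is described without a test. Fgfrl1 was 3.99, 4.01, 3.85, 3.66 and 3.94 on the HFD VP arrays, against 3.59, 3.45, 3.47, 2.82 and 3.47 on the control VP arrays. Every HFD array lay above every control array, as for 2.58% of all tested genes, and control VP 4 was the lowest array. The means were 3.89 ± 0.14 in HFD VP and 3.36 ± 0.31 in control VP (SD, n = 5 each), which is 1.44-fold higher on the HFD. The log2 difference was 0.53 ± 0.11 (SE), and it was 0.39 without control VP 4. This SE is from a fit in which the 4 groups shared 1 spread per gene. The median SD over genes was 0.17 in HFD VP and 0.18 in control VP, against 0.12 in HFD DLP and 0.13 in control DLP. The SE may therefore be too small for VP. Of the 7 tested members, Fgfrl1 was the 1 called in this contrast, where 1.11% of all tested genes were called, and nothing is read from that count because the rule used it.

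A second probe set of Fgfrl1 did not show this difference. It was 2.87, 2.80, 2.87, 2.96 and 2.71 on the HFD VP arrays, against 2.69, 2.89, 2.98, 2.76 and 2.69 on the control VP arrays, and the diets overlapped throughout. Its log2 difference was 0.04 ± 0.10 (SE), with a 95% interval from -0.17 to 0.25 that lies below the value of the first probe set. Both probe sets lay above the array median on all 19 arrays. The first, 1447878_s_at, is annotated through an expressed sequence tag and has the suffix that the array maker used for probe sets that may match more than 1 gene. The second, 1451912_a_at, is annotated through a messenger RNA record and has the suffix for several transcripts of the same gene. The probe sets that stood for Fgfr1 and Fgfr2 have the same suffix as 1447878_s_at, so that limit is not particular to Fgfrl1. The part of alternative transcripts or of other genes in the disagreement of the Fgfrl1 probe sets was not tested.

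**Figure D4:**
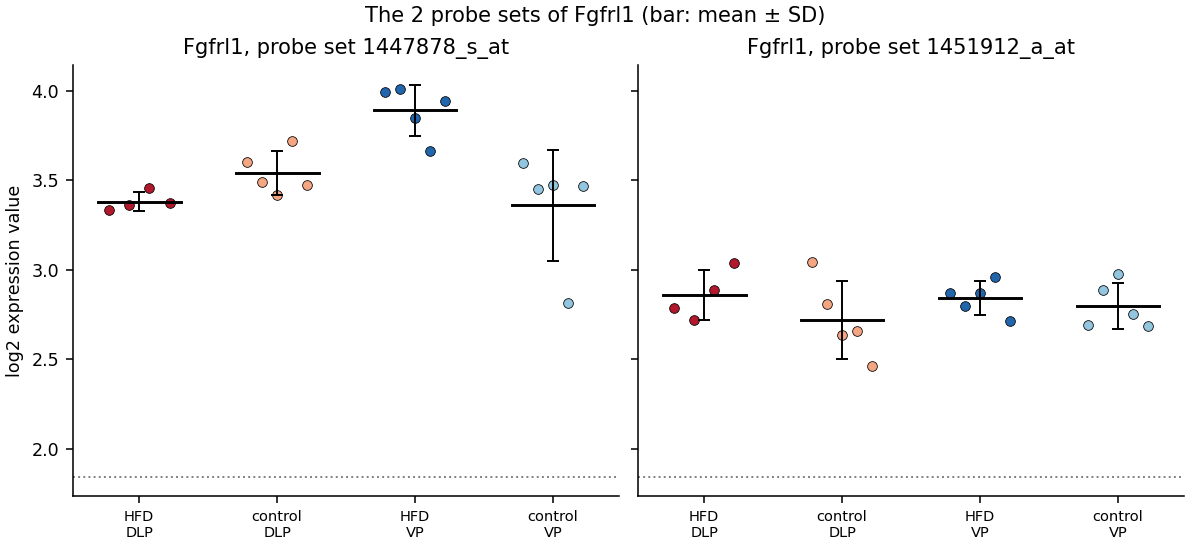
The log2 expression value of Fgfrl1 on each array from its 2 probe sets (points), with the mean and SD of each group and the array median as a dotted line. The left probe set was higher in HFD VP, at 3.66 to 4.01, than in control VP, at 2.82 to 3.59, whereas the right probe set overlapped between all groups.

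Across the 4 groups the first probe set of Fgfrl1 averaged 3.38 in HFD DLP, 3.54 in control DLP, 3.89 in HFD VP and 3.36 in control VP. HFD VP had the highest mean, its lowest array at 3.66 lay below control DLP 4 at 3.72, and the other 3 groups overlapped each other. The diet difference in DLP minus that in VP was -0.69 ± 0.17 (SE), which is also a description because it holds the VP arrays. Adipocyte markers had a summed linear level of 33 to 43 in HFD VP and 41 to 66 in control VP, highest on control VP 4, and Cidec, Lep and Retn never rose above the array median. Macrophage markers ranged from 66 to 215 in HFD VP, highest on HFD VP 3, and from 58 to 144 in control VP. Without control VP 4 and HFD VP 3 the Fgfrl1 difference was 0.40, and without HFD VP 2, which had the most seminal vesicle marker signal, it was 0.50. The part of these cells was otherwise not tested.

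The other members in VP are given as values in the same way. Fgfr3 averaged 3.43 ± 0.61 in HFD VP and 3.01 ± 0.23 in control VP (SD, n = 5 each), a difference of 0.42 that was 0.18 without HFD VP 4. Fgf1 averaged 5.75 ± 0.24 in HFD VP and 5.49 ± 0.25 in control VP (SD, n = 5 each), a difference of 0.26, while its 2 other probe sets gave 0.04 and -0.07. Fgfr2 differed by 0.10, Fgf7 by 0.00, Fgfr1 by -0.06 and Fgf10 by -0.07, and the diets overlapped for each. Hspg2, the matrix proteoglycan perlecan, averaged 3.69 in HFD VP and 3.21 in control VP. It was the 1 gene that the fit called on the diet in VP among 47 tested genes of the 5 pathway lists. That is 2.1%, against 1.11% of all tested genes, so nothing is read from the count. A fit of the VP arrays alone called 0 genes on the diet. The difference of the diet effects between the lobes, tested for the 6 members other than Fgfrl1, was called for none by limma, with adjusted p-values from 0.60 to 0.99 and 0 of 6 at an unadjusted p under 0.05. Over all tested genes 0.00853% were called in that comparison.

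Genes whose values followed the members most closely were named by Pearson's r over the 19 arrays after the mean of each lobe had been subtracted. These are descriptions over arrays that share groups and normalization. The genes were picked for the highest r among all tested genes, so a high r was partly set by that choice. Diet means were not subtracted, so the values for Fgfrl1 also hold the VP diet difference that chose it. Fgfrl1 was followed by Pitpnb, with r of 0.87, and Pgls, with 0.84. Fgf1 was followed by Cyfip2, with 0.89, and Lancl3, with 0.88, and Fgfr3 by Ccdc82, with 0.86, and Ccdc3, with 0.84. Fgfr2 was followed by Tgm2, with 0.84, and Atp10d, with 0.81, and Fgfr1 by Tspan2, with 0.82, and Etv5, with 0.78. Etv5 is a transcription factor that FGF signalling induces in several tissues. It lay near the array median here, above it on 5 of 10 VP arrays and 8 of 9 DLP arrays, and no link was tested. Fgf7 was followed by 2210408K08Rik, with 0.82, and Ocel1, with 0.80, and Fgf10 by Krt42, with 0.77, and Atg12, with 0.71. Among the 7 members themselves r ran from -0.39 to 0.44, so none followed another closely.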

How the data were processed

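Expression of 19 samples was measured on a 3′ expression array, and the submitters' processing notes name MAS5. The values the authors deposited were on a log scale taken as log10. Every array held the same set of values in another order, so only ranks differ between arrays; the step that did this is not given in those notes. The base was inferred from spiked hybridization controls. Their 3 deposited steps of 0.53, 0.74 and 0.96 compare with nominal log10 steps of 0.52, 0.70 and 0.60, so the base is uncertain at high values, and folds rest on it. Values were converted to log2 and 64 control probe sets of 45101 were left out. Of the rest, 34945 had 1 gene symbol in the annotation, 932 had several and 9160 had none. A probe set was kept when above its array's median on at least 4 arrays, and the one with the highest mean stood for a gene.

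Tests used limma 3.58.1 (R 4.3.3; trended eBayes prior) with 4 group means over 19 arrays, and two-sided Benjamini-Hochberg adjusted p-values over 11728 genes at 0.05. The fit was tested on simulated data. Members, lists and alternatives were chosen with earlier results of these data known. Named were all members, the 2 genes closest in pattern to each, and up to 4 called genes per pathway list with the largest change; Hspg2 and Tgm4 were named after their values were seen. Alternatives covered the offset, filter, probe set, normalization, prior, weights, replicate number as a block, and arrays left out. The number of arrays limits the precision.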

Additional observations from a re-analysis of the deposited data

Results flagged for a closer look

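Of 56 groups of 4 or 5 arrays, 14 probe sets of the members in 4 groups, 5 held an array whose gap to its nearest neighbour took up more of the group's range than Dixon's 95% critical value allows. Chance gives about 1 such group in 20. Fgfrl1 probe set 1447878_s_at was 2.82 on control VP 4, below the other control VP arrays at 3.45 to 3.59, and this array is part of the diet difference described in VP. Fgfr2 probe set 1420847_a_at was 3.16 on control VP 4 and 3.24 on control DLP 1, each the highest of its group. Fgf7 probe set 1438405_at was 2.43 on control VP 1, and Fgf10 probe set 1420690_at was 1.81 on HFD VP 4, each the lowest of its group. Control VP 4 thus stood apart for 2 members, in opposite directions.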

How the results depend on the processing

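The calls of Fgf1, Fgfr2 and Fgfr3 between the lobes, averaged over diets, held in all 19 fits that left out 1 array. Members called ranged from 3 to 4 there, and where it was 4 the added member was Fgfrl1, which is not read as a call. In HFD mice the number called was 1 with the filter at the 75th percentile, which leaves fewer genes tested. Fgfr3 was not tested under that filter, because only HFD VP 4 and HFD VP 5 exceeded the percentile. In control mice the number called was 1 without control DLP 2, 4 and 5, which leaves fewer samples. Genes called on the diet in DLP numbered 4 with 15 added before log2, 1 with no filter, 5 with array weights, 6 with a weight per lobe, 1 without control DLP 2, 4 and 5, 1 without the 3 arrays of high Spink1, which was chosen after seeing the data, and 0 to 2 leaving out 1 array. Genes called in VP, 130 in all, were 78 with no filter, 209 at the 75th percentile, 47 with the mean of probe sets, 83 without a trend, 47 with array weights, 20 with a weight per lobe, 48 without control DLP 2, 4 and 5, 28 without the high Spink1 arrays, 0 in VP alone, and 70 to 148 leaving out 1 array. The Fgfrl1 difference in VP was 0.23 with 15 added, 0.29 with the mean of probe sets, 0.043 from the other probe set, and 0.39 to 0.59 leaving out 1 array. With the mean of its probe sets the averaged lobe difference of Fgf1 was 0.14 with limma's adjusted p of 0.12. The lobe difference of Fgfr3 in control mice missed the threshold with 15 added, at -0.18 and limma's adjusted p of 0.092. The averaged lobe difference of Fgfrl1 was -0.08 with 15 added and -0.22 with array weights. These 2 values are a description, because the VP arrays that chose the gene enter them.

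Signs turned as follows, none of them in a result that passed except for Fgf1. Averaged over diets, Fgf1 was -0.084 by probe set 1450869_at, Fgfr1 -0.037 by 1436551_at, Fgf7 0.000815 without the high Spink1 arrays and 0.018 with the block, and Fgf10 0.017 with array weights, 0.032 without control VP 4 and HFD VP 3, 0.029 without control DLP 2, 4 and 5 and 0.023 without the high Spink1 arrays. By 1450869_at Fgf1 was -0.089 in HFD mice and -0.080 in control mice, and by 1441042_at -0.24 in control mice. On the diet in DLP, Fgf1 was 0.18 with the mean of probe sets, 0.57 by 1441042_at and 0.031 by 1450869_at, Fgf10 0.061 without the high Spink1 arrays, Fgfr3 0.0030 without control DLP 2, 4 and 5 and 0.0043 with the block, and Fgfrl1 0.14 by 1451912_a_at. Leaving out 1 array gave -0.063 to 0.025 for Fgf7, -0.050 to 0.033 for Fgf10 and -0.017 to 0.057 for Fgfr1 between lobes, and -0.12 to 0.015 for Fgf1, -0.098 to 0.041 for Fgf10 and -0.11 to 0.065 for Fgfr3 in DLP. The cause was not tested.

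The labels do not say whether replicate numbers pair the arrays. Deviations of same-numbered arrays correlated with r from -0.066 to 0.189 over 9 pairs, 4 of them over 0.1. Of the 9, 5 correlated best with their own number, where each DLP array had 5 VP numbers to match and some matches arise by chance. Whether the numbers mark pairs was not tested, and the main fit did not use them as pairs. With the replicate number as a block, 7523 genes were called between the lobes, 93 on the diet in VP and 0 in DLP, and Fgfr3 differed by -0.80 between the lobes with limma's adjusted p of 0.00038.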
